A study of Arabidopsis thaliana with 7 samples.

Results

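Pericentromeric peaks were the peaks of anti-CPD immunoprecipitation whose midpoint lay in 1 fixed window around the centromere of each nuclear chromosome of Arabidopsis thaliana. On the TAIR10 build the windows were chr1:11420001-18270000, chr2:910001-7320000, chr3:10390001-16730000, chr4:1070001-6630000 and chr5:8890001-15650000. A stretch of ribosomal RNA genes at chr3:14190000-14206000 was left out, with the 23 peaks in it. The windows held 477 of the 2374 nuclear peaks and of the 2936 peaks in all 6 lists. They were 35 to 105 peaks in a UV library and 78 and 106 in the untreated ones.

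A pericentromere is the heterochromatin on both sides of a centromere, where DNA is densely methylated, transposable elements are frequent and genes are few. A cyclobutane pyrimidine dimer, or CPD, is a lesion that UV makes between neighbouring pyrimidines of 1 DNA strand. Plants remove it with photolyases, which use light, and with nucleotide excision repair.

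All libraries came from seedlings of wild-type Col-0, given as 3 weeks old and grown in 16 h of light and 8 h of dark. DNA of the 4 UV libraries came from plants given UV-C at 3000 J per square metre, and DNA of the 2 untreated libraries from plants labelled no UV. The same anti-CPD antibody was used in both groups, and 1 input library had no antibody and no list of its own here. Whole seedlings mix cell types, and the time between exposure and harvest is not given in the sources used here. The labels number the replicates without naming separate cultures, so every p-value here reflects how far the libraries differ, and that spread may be technical.

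The windows matched their name in the gene annotation. Protein-coding genes numbered 91.8 to 120.7 per Mb inside them and 267.8 to 285.3 per Mb on the arms. Pseudogenes, a class in which this annotation may also place transposons, numbered 89.6 to 136.2 per Mb inside and 9.01 to 13.4 on the arms. Protein-coding gene bodies covered 22.9% of the windows and 65.5% of the arms, and pseudogenes 27.0% and 2.12%. Lists held 228 to 677 peaks. The depth of sequencing is unknown, and list length was used in its place. Every list had been called against the same pooled input, so the 6 lists are not fully independent of each other.

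Peaks were sparser in pericentromeres than on the arms in all 6 libraries, with and without UV. Each density counts the full length of the windows, the rDNA stretch apart, or of the arms. Whether reads could be placed over all of that length was not tested. In UV libraries 1 to 4 the pericentromeres held 2.26, 1.10, 2.54 and 3.29 peaks per Mb, against 3.77, 1.62, 3.47 and 4.33 per Mb on the arms. In the untreated libraries they held 2.45 and 3.32 peaks per Mb, against 3.62 and 4.72 on the arms. The density inside was therefore 0.599, 0.677, 0.732 and 0.760 of the arm density in UV libraries 1 to 4, and 0.675 and 0.703 in the untreated libraries. The ranges of this ratio overlap, and the UV mean of 0.692 ± 0.0709 (SD, n = 4) lay beside an untreated mean of 0.689 ± 0.0199 (SD, n = 2).

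Over the 6 libraries the mean was 2.49 ± 0.817 peaks per Mb inside and 3.59 ± 1.07 on the arms (SD, n = 6), a difference of -1.10. An exact sign-flip permutation test over libraries gave p = 0.03125, the smallest that 6 libraries allow, and 0.0625 after adjustment over the 4 comparisons with the arms. No comparison with the arms thus passed 0.05 after adjustment. The direction was the opposite among peaks scoring above the median of their whole list, peaks outside the nuclear chromosomes included. This limit kept 37.0% to 65.7% of a library's pericentromeric peaks and 9.21% to 44.0% of its arm peaks, so the part kept differed between libraries. Among the peaks kept, the density was higher inside in 5 of 6 libraries, by 0.360 per Mb on average (exact permutation p = 0.0938). Among peaks wider than the narrowest of their list it was higher inside in 4 of 6, by 0.0542 per Mb (exact permutation p = 0.1875).

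UV libraries held fewer pericentromeric peaks per Mb on average than untreated ones, by less than the spread between libraries. The UV mean was 2.30 ± 0.911 per Mb (n = 4) and the untreated mean 2.88 ± 0.621 (n = 2, exact permutation p = 0.467). Per 100 nuclear peaks of a list, the UV mean was the higher by 0.000932 per Mb (exact permutation p = 0.933). The difference of -0.588 per Mb ran from -1.03 without untreated replicate 1 to -0.188 without UV replicate 2 and -0.149 without untreated replicate 2, and was -0.0392 among peaks above the median score. With 4 libraries against 2, no test between the groups can give a p under 0.0667.

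**Figure D1:**
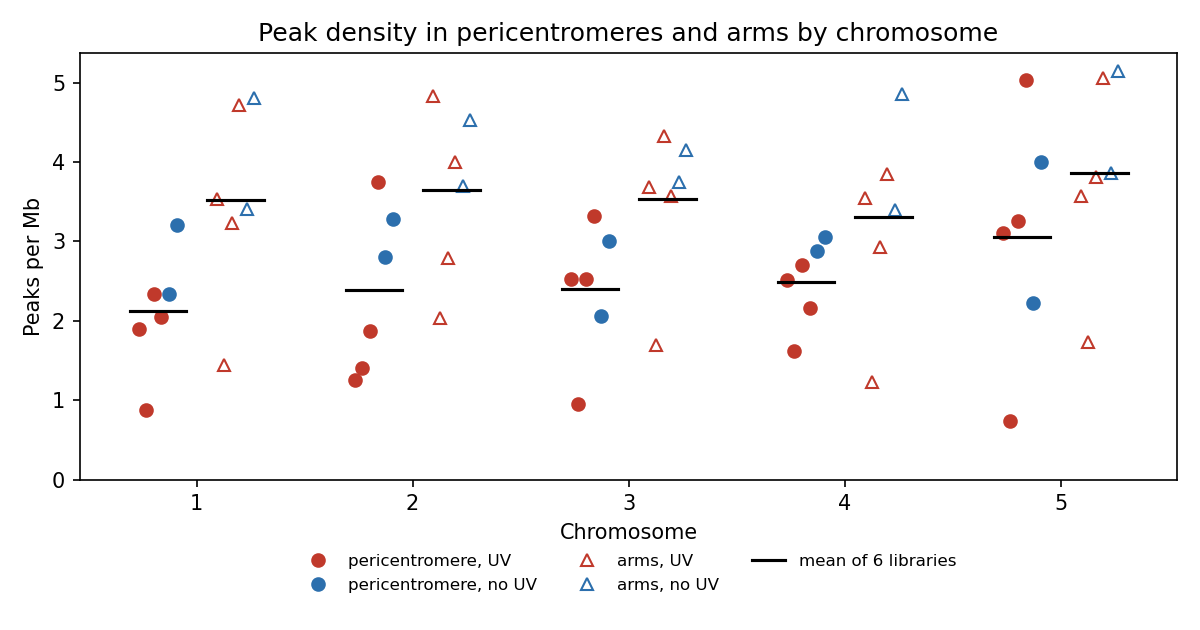
Peaks per Mb (y axis) in the pericentromeric window (filled circles) and on the arms (open triangles) of each chromosome (x axis) in 4 UV and 2 no UV libraries, with bars at the mean of 6 libraries. Window means lie below arm means on all 5 chromosomes, from 2.12 against 3.52 on chromosome 1 to 3.06 against 3.86 on chromosome 5.

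The pericentromere was the sparser part on every chromosome in nearly every library. Of 30 pairs of a library and a chromosome, 29 had the lower density inside. The exception was chromosome 4 in UV replicate 2, the shortest list, with 9 peaks or 1.62 per Mb inside (exact Poisson 95% interval 0.740 to 3.07) and 1.23 per Mb on the arms.

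Chromosome 5 held the most pericentromeric peaks, 124 of 477, and chromosome 4 the fewest, 83. Its mean density was 3.06 ± 1.48 peaks per Mb (SD, n = 6), against 2.12 ± 0.760 on chromosome 1, 2.39 ± 1.03 on chromosome 2, 2.40 ± 0.833 on chromosome 3 and 2.49 ± 0.527 on chromosome 4. The range of these 5 means is narrower than the range of libraries on any 1 chromosome, but list length differs between libraries and bears on all chromosomes. Within libraries, chromosome 5 lay below chromosome 1 in UV replicate 2 (0.740 against 0.876 per Mb) and untreated replicate 1 (2.22 against 2.34). In the other libraries it lay above. The window of chromosome 5 held 21, 5, 22 and 34 peaks with UV (replicates 1 to 4) and 15 and 27 without. UV replicate 4 there reached 5.03 per Mb, almost its arm density of 5.05, while UV replicate 2 had 0.740.

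Chromosome 1 took less of the pericentromeric peaks in all 4 UV libraries than in both untreated libraries. The shares were 18.1%, 17.1%, 19.8% and 13.3% in UV libraries 1 to 4 and 20.5% and 20.8% without UV, with means of 17.1% ± 2.72 (n = 4) and 20.6% ± 0.171 (n = 2). The exact permutation p was 0.2, or 0.667 after adjustment over the 5 chromosomes. The difference of -3.56 percentage points was -6.67 in windows narrowed by 1 Mb and -1.73 in windows widened by 1 Mb. Among wide peaks alone the order turned, with a UV mean 7.29 percentage points higher. For the other 4 chromosomes the groups overlapped, with differences of -2.82 (chromosome 2), 2.48 (chromosome 3), 0.501 (chromosome 4) and 3.40 percentage points (chromosome 5) and adjusted exact permutation p-values of 0.667 to 0.933. Single libraries moved these values: they ran from -5.18 to -0.315 on chromosome 2, from -1.81 to 2.95 on chromosome 4 and from 0.277 to 7.22 on chromosome 5 when each library was left out. The lowest of these came without UV replicate 2 on chromosomes 2 and 4 and without untreated replicate 1 on chromosome 5. The highest came without UV replicate 1 on chromosome 2, UV replicate 4 on chromosome 4 and UV replicate 2 on chromosome 5. The UV share of chromosome 2 ranged from 11.1% in replicate 1 to 25.7% in replicate 2, and that of chromosome 4 from 11.4% in replicate 4 to 25.7% in replicate 2.

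**Figure D2:**
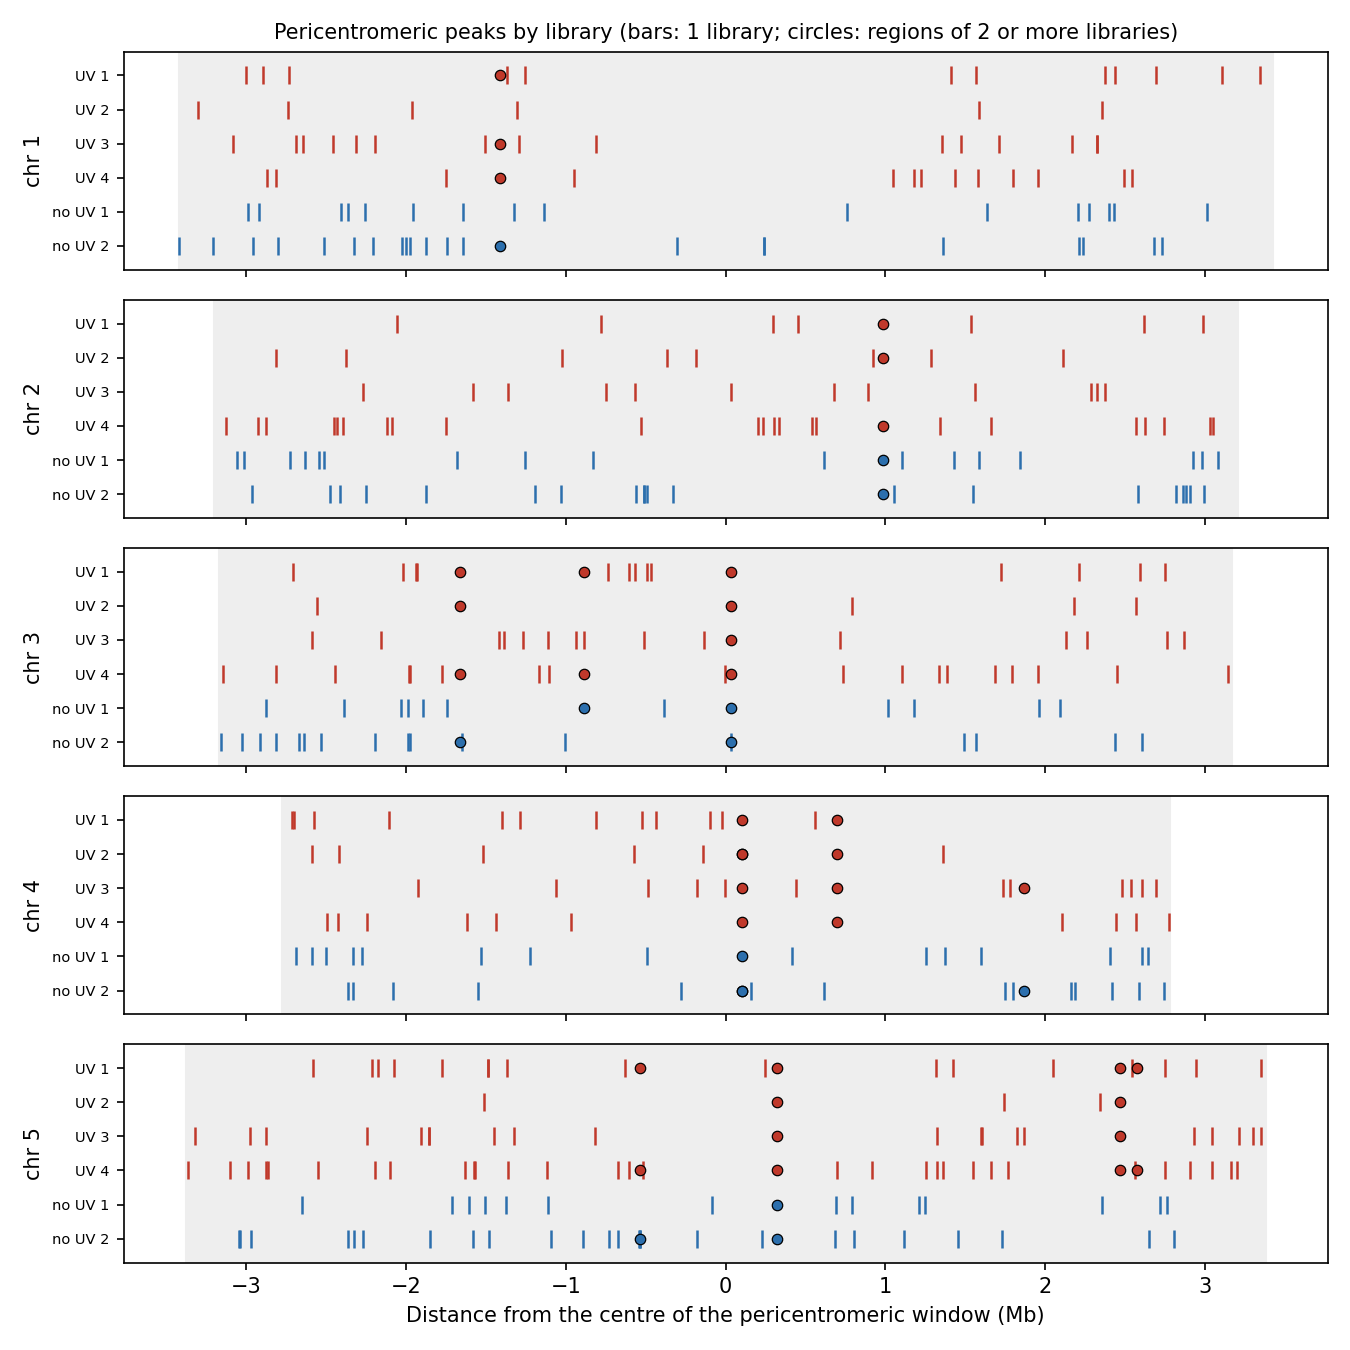
Midpoints of all 477 pericentromeric peaks as distance in Mb from the centre of their window (x axis), with 1 row for each of 4 UV and 2 no UV libraries on each chromosome. Bars are peaks of regions found in 1 library and circles peaks of the 13 regions found in 2 or more, and the middle of chromosome 1 holds almost no peak.

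Peaks were spread over the windows, with fewer in the middle when the 5 chromosomes were pooled. With each window cut into 10 equal parts, the outermost parts held 60 and 55 peaks over all libraries, and parts 5 and 6 held 41 and 38. On chromosome 1 parts 5 and 6 held 1 and 2 of the 87 peaks. They held 9 and 10 of 92 on chromosome 2 and 8 and 7 of 91 on chromosome 3. On chromosome 4 they held 10 and 11 of 83, and on chromosome 5 13 and 8 of 124. The outermost parts held 12 and 3 peaks on chromosome 1, 9 and 16 on chromosome 2 and 13 and 7 on chromosome 3. They held 15 and 13 on chromosome 4 and 11 and 16 on chromosome 5. Parts 5 and 6 together thus held fewer peaks than the outermost parts on each chromosome. The contrast was strongest on chromosome 1 and smaller on the others, where the counts are low.

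The middle 50% of window length held a larger share of peaks in all 4 UV libraries than in both untreated libraries. The counts were 35, 18, 38 and 45 with UV (replicates 1 to 4) and 33 and 43 without. As shares these were 48.6%, 51.4%, 46.9% and 42.9% with UV and 42.3% and 40.6% without. The groups do not overlap, but UV replicate 4 and untreated replicate 1 nearly meet. The means were 47.5% ± 3.585 (n = 4) and 41.4% ± 1.23 (n = 2), with an exact permutation p of 0.133, or 0.56 after adjustment over the 6 comparisons between groups. The difference of 6.02 percentage points fell to 0.915 in windows narrowed by 1 Mb (exact permutation p = 0.8). It was 2.695 points for a narrower inner zone of each window and 0.368 among wide peaks.

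**Figure D3:**
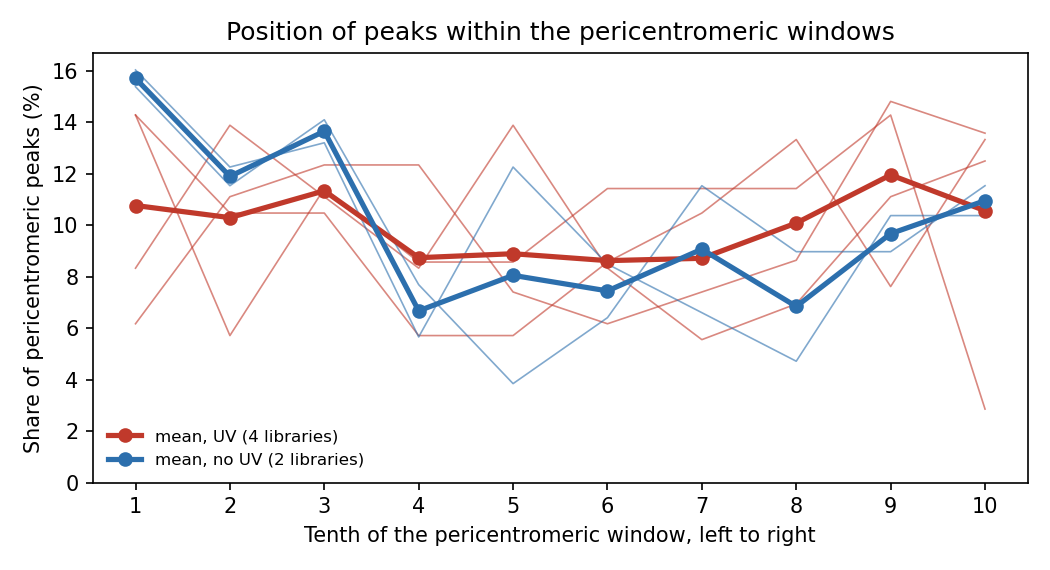
Share of each library's pericentromeric peaks in percent (y axis) in 10 equal parts of the window from left to right (x axis, 5 chromosomes pooled), with thin lines for the 4 UV and 2 no UV libraries and thick lines for group means. Single libraries cross in most parts, and in part 1 the untreated libraries held 12 and 17 peaks and the UV libraries 6, 5, 5 and 15.

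The longest stretch without a peak in any library, rDNA peaks not counted, lay at a different place in each window. It ran from 45.55% to 53.5% of window length on chromosome 1, from 78.8% to 82.9% on chromosome 2, from 50.5% to 61.3% on chromosome 3, from 62.6% to 72.6% on chromosome 4 and from 54.8% to 60.1% on chromosome 5. The longest on chromosome 3 was 686.0 kb, at chr3:13592131-14278141, counting the rDNA stretch inside it as empty although that held peaks. On chromosome 4 it was 557.2 kb at chr4:4548094-5105252, on chromosome 5 it was 357.9 kb at chr5:12593666-12951604 and on chromosome 2 it was 265.5 kb at chr2:5959973-6225453. Median distances between neighbouring peaks of all libraries were 30.5 to 48.25 kb. On chromosome 1 stretches of 503.5, 543.6 and 520.9 kb followed each other from 14036342 to 15606898, with a lone peak behind 503.5 kb and a pair of peaks behind 543.6 kb.

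On chromosomes 3, 4 and 5 the longest stretch began right behind a region found in at least 4 libraries. These regions ended at 13592130 on chromosome 3, 4548093 on chromosome 4 and 12593665 on chromosome 5. On chromosomes 1 and 2 no recurrent region bounded the longest stretch. Whether reads could be placed in these stretches was not tested, since no genome sequence was used.

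Recurrence was the exception inside the windows. Peaks of all libraries that overlapped by at least 1 bp were joined into regions, and 426 of the 439 pericentromeric regions had a peak in only 1 library. The other 13 regions had peaks in 2 or more libraries, which is 2.96% of regions, beside 1.47% of nuclear regions outside the rDNA stretch (33 of 2241, windows and arms together) and 1.11% (20 of 1802) on the arms. Regions in at least 4 libraries numbered 8, or 1.82%, beside 0.803% of the same 2241 regions and 0.555% on the arms. These shares are a description without a test, because the lists share the pooled input.

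Most of the 13 regions were found with and without UV. Both groups had a peak in 10, and 3 regions had peaks in UV libraries only. None had peaks in both untreated libraries alone. The arms showed a similar split: of their 20 recurrent regions, 15 had peaks in both groups, 4 in UV libraries only and 1 in untreated libraries only. With 4 UV and 2 untreated libraries, a region of UV libraries only can also arise from more pairs of libraries. Chromosomes 4 and 5 held 4 regions each, chromosome 3 held 3, and chromosomes 1 and 2 held 1 each. The regions were 143 to 580 bp wide, with a median of 292 bp. They took 15.3%, 22.9%, 8.64% and 10.5% of the pericentromeric peaks of UV replicates 1 to 4 and 6.41% and 8.49% of those of the untreated libraries. On the arms recurrent regions took 3.96% to 8.51% of the peaks of a library.

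**Figure D4:**
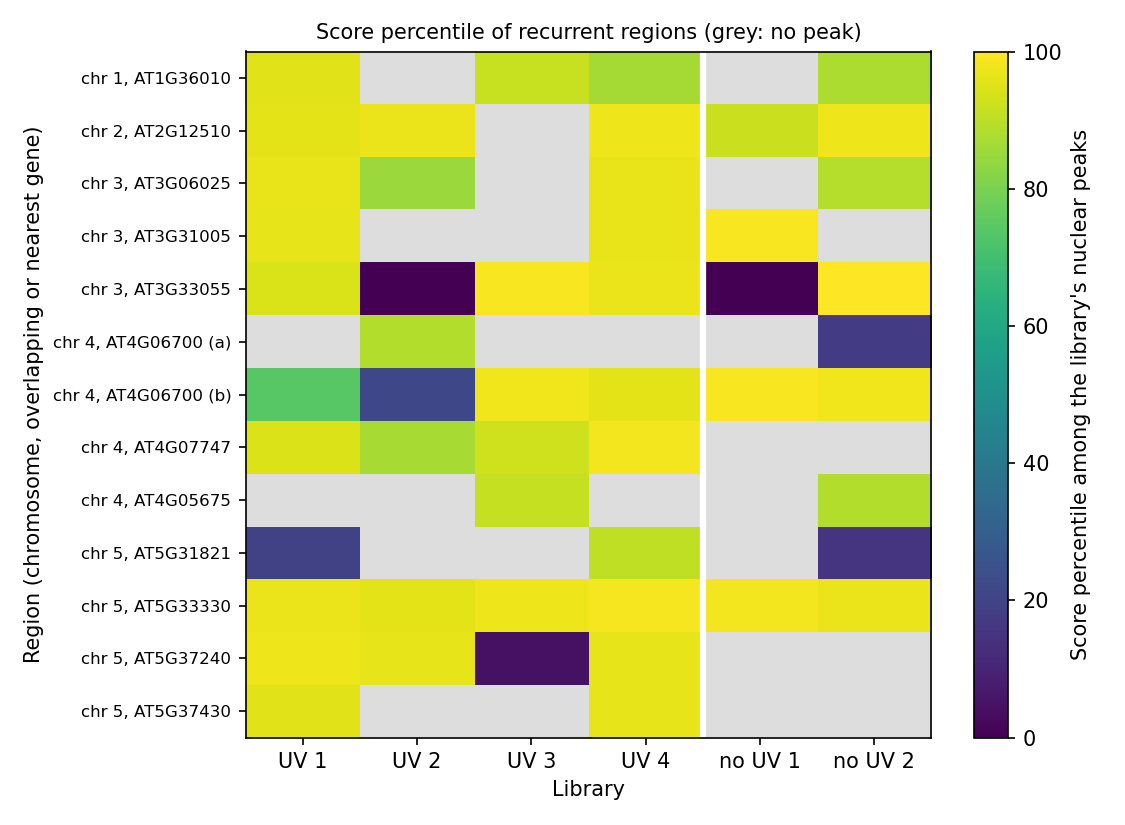
Score percentile among the nuclear peaks of the same library (colour, 0 to 100) of the 13 recurrent pericentromeric regions (y axis, by chromosome and overlapping or nearest gene) in 4 UV and 2 no UV libraries (x axis), grey where a library had no peak. The region near AT5G33330 is above 95 in all 6 libraries, and that near AT3G33055 spans 0.126 to 99.9.

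Scores were compared only by rank. The authors' score of each peak was turned into a percentile among the nuclear peaks of its own list, with tied scores sharing their middle rank. All 6 libraries had a peak in 6 of the 1802 regions on the arms and in 3 of the 439 pericentromeric regions.

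The region at chr5:12593363-12593665 was the most even of these 3 pericentromeric regions. No gene overlapped it, and the nearest was the protein-coding gene AT5G33330. Its peaks had scores of 10.7, 12.1, 7.503 and 10.6 in UV libraries 1 to 4 and 7.71 and 4.63 in the untreated libraries, and these stood at percentiles 96.9, 95.8, 97.6, 98.5, 98.4 and 97.0. The 6 peaks were 247 to 301 bp wide, each wider than the narrowest of its list, and shared 247 bp. It was the highest-scoring pericentromeric peak of UV replicate 4 and the widest of UV replicate 2.

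The region at chr4:3953434-3953737, nearest to the pseudogene AT4G06700, had 6 peaks of 245 to 298 bp that shared 239 bp. Their percentiles were 73.95, 21.75, 97.8 and 96.0 in UV libraries 1 to 4 and 99.1 and 97.8 without UV. Both low values were in UV libraries, while UV replicates 3 and 4 lay with the untreated ones. It gave the top pericentromeric score of untreated replicate 1, 12.5, and the widest peak of UV replicate 4, 259 bp. Just before it, at chr4:3950891-3951033, UV replicate 2 and untreated replicate 2 each had a further peak, at percentiles 88.4 and 17.4.

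The region at chr3:13591551-13592130, nearest to the pseudogene AT3G33055, was the least even. Its percentiles were 94.2, 0.282, 99.1 and 97.2 in UV libraries 1 to 4 and 0.126 and 99.9 without UV. The untreated replicates thus held both the lowest and the highest value. In untreated replicate 2 it was the highest-scoring nuclear peak, with a score of 17.0 and a width of 551 bp. In UV replicate 2 and untreated replicate 1 the peaks had the lowest score of their nuclear lists, 1.99 and 2.43, and yet were 276 and 280 bp wide. All 6 peaks were wider than the narrowest of their list, and 130 bp were shared by all libraries. It was also the highest-scoring and the widest pericentromeric peak of UV replicate 3 (score 11.5, 303 bp) and the widest of untreated replicate 1.

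The region at chr2:5099828-5100128 had peaks in 5 libraries and overlapped the pseudogene AT2G12510. The percentiles were 95.9, 96.9 and 97.4 in UV replicates 1, 2 and 4 and 91.9 and 97.6 in the untreated libraries, with no peak in UV replicate 3. Its score of 16.8 was the highest of the pericentromeric peaks of UV replicate 2, where it was 168 bp wide.

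Another 2 regions had peaks in 3 UV libraries and in untreated replicate 2. The one at chr1:13430120-13430424, nearest to the pseudogene AT1G36010, had percentiles of 95.7, 91.6 and 86.55 in UV replicates 1, 3 and 4 and 87.9 in untreated replicate 2. Widths there were 305, 290 and 244 bp with UV and 122 bp, the narrowest of its list, without. The 305 bp peak was the widest pericentromeric one of UV replicate 1. The one at chr3:11895237-11895389, nearest to the long non-coding RNA gene AT3G06025, had percentiles of 96.7, 85.0 and 96.8 in UV replicates 1, 2 and 4 and 88.9 in untreated replicate 2. In both regions the untreated percentile lay inside the UV range.

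A further 2 regions had peaks in UV replicates 1 and 4 and in 1 untreated library. That at chr3:12670314-12670468 overlapped the transcribed pseudogenes AT3G31005 and AT3G31161 and stood at percentiles 96.4 and 96.6 with UV and 98.9 in untreated replicate 1. That at chr5:11735071-11735356, nearest to the pseudogene AT5G31821, stood at 19.6 and 90.2 with UV and 14.9 in untreated replicate 2, and no base of it was covered by all 3 libraries. At chr4:5717586-5717760, nearest to the long non-coding RNA gene AT4G05675, UV replicate 3 and untreated replicate 2 had peaks at percentiles 91.1 and 88.6.

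Peaks in all 4 UV libraries and in neither untreated one occurred in 2 of the 439 pericentromeric regions. Exactly 4 libraries of either group had a peak in 4 of these 439 regions and in 3 of 1802 on the arms. At most 3 arm regions could thus show the same pattern. At chr4:4547945-4548093, nearest to the transcribed pseudogene AT4G07747, the 4 peaks started within 1 bp of each other, were 128 to 148 bp wide and shared 127 bp. Their scores were 5.89, 4.19, 3.81 and 7.80, at percentiles 94.6, 87.0, 92.7 and 98.3, and the nearest untreated peak lay 84810 bp away. At chr5:14739445-14739742, overlapping the protein-coding gene AT5G37240, scores were 11.9, 15.9, 2.30 and 5.25 and widths 298, 272, 145 and 251 bp. The percentiles were 97.7, 96.3, 4.38 and 96.2, UV replicate 3 being low and of the narrowest width of its list. This was the highest pericentromeric score of UV replicate 1, and the nearest untreated peak lay 113652 bp away. With 2 untreated libraries, absence from both is a weak criterion, and no test was made on these regions because they were picked by presence and absence.

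The remaining UV-only region, at chr5:14844054-14844345, overlapped the protein-coding genes AT5G37430 and AT5G37440 and lay 104312 bp behind the previous one. UV replicates 1 and 4 had peaks of 292 and 131 bp there, at percentiles 95.4 and 96.4. Only 1 other protein-coding gene held midpoints of 2 libraries in the windows: AT5G35380 on chromosome 5 had separate peaks in UV replicate 3 at 13593423 to 13593567 and in UV replicate 4 at 13594370 to 13594493.

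Recurrent peaks were mostly wide and high-scoring, and peaks of 1 library mostly neither. Of the 51 peaks in recurrent regions, 41 (80.4%) were wider than the narrowest of their list and 36 (70.6%) stood at or above percentile 90. Of the 426 other pericentromeric peaks, 57 (13.4%) were that wide and 48 (11.3%) stood that high. Wide peaks overlap others more easily, so width and recurrence are not independent measures.

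Outside recurrent regions, the 5 highest percentiles belonged to untreated libraries in 4 cases. The untreated libraries held 78 and 106 of all 477 pericentromeric peaks. Percentiles also depend on list length: rank 8 stood at 98.6 in untreated replicate 2 and at 95.8 in UV replicate 2. Untreated replicate 2 had the peaks at chr5:11733823-11734061 (percentile 98.6, nearest to AT5G31821), at chr5:9231015-9231221 in the protein-coding gene AT5G26300 (98.4) and at chr2:2922666-2922825 nearest to the non-coding RNA gene AT2G07042 (96.8). Untreated replicate 1 had the peak at chr2:1100115-1100309 in the protein-coding gene AT2G03610 (96.6). The only UV one was in replicate 3, at chr5:10820648-10820793, nearest to the pseudogene AT5G28790 (97.3).

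Pericentromeric peaks were wider than the minimum more often than arm peaks in every library. The narrowest width of a list, shared by most of its peaks, was 122 to 147 bp, and a peak above it is termed wide. Wide were 21 of 72, 13 of 35, 11 of 81 and 25 of 105 pericentromeric peaks in UV libraries 1 to 4, or 29.2%, 37.1%, 13.6% and 23.8%. In the untreated libraries 11 of 78 and 17 of 106 were wide, or 14.1% and 16.0%. On the arms the shares were 14.9%, 12.1%, 10.6% and 18.3% with UV and 9.21% and 10.5% without.

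The difference from the arms was 9.71 percentage points on average, from 2.98 in UV replicate 3 to 25.1 in UV replicate 2 (exact sign-flip permutation p = 0.03125, adjusted 0.0625, higher in 6 of 6 libraries). Without the recurrent regions it was 5.30 points and higher in 5 of 6 libraries (exact permutation p = 0.0625). Most peaks of those regions were wide, and wide peaks overlap more easily. This drop therefore cannot tell where the difference comes from. Among peaks above the median score the direction turned, to -11.3 points (exact permutation p = 0.3125). With wide taken as at least 1.5 times the narrowest width it was 5.04 points.

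**Figure D5:**
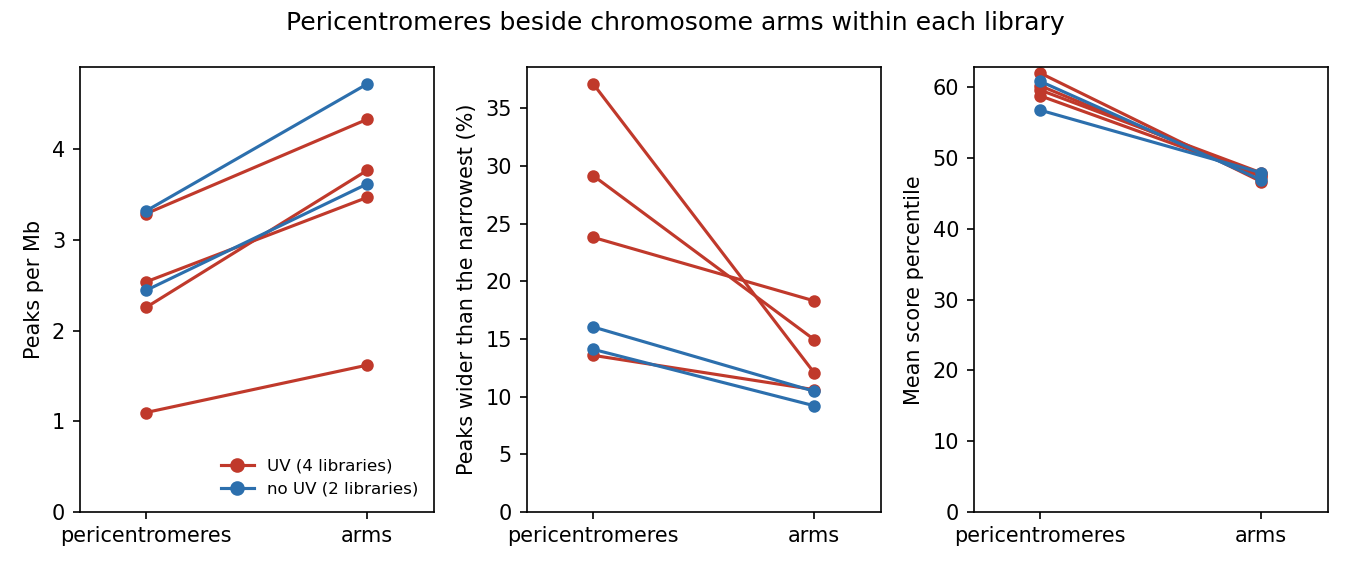
Peaks per Mb, share of peaks wider than the narrowest of their list and mean score percentile (y axes, from 0) in pericentromeres and arms (x axes), 1 line for each of 4 UV and 2 no UV libraries. All 6 lines go up from pericentromeres to arms for density and down for the other 2 measures.

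Between the groups the wide share inside the windows was 25.9% ± 9.89 with UV (n = 4) and 15.1% ± 1.37 without (n = 2). UV replicate 3, at 13.6%, lay below both untreated libraries, and the exact permutation p was 0.333 (adjusted 0.56). The difference of 10.85 points was 5.69 without recurrent regions, 5.69 with the 1.5 times limit and 7.115 without UV replicate 2. The widest pericentromeric peak of a library was 259 to 305 bp in UV libraries and 280 and 551 bp in the untreated ones. The arms reached 3381 bp in UV replicate 1.

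Pericentromeric peaks stood higher in their lists than arm peaks when ranks were averaged. The mean percentile was 59.6, 62.0, 60.2 and 58.8 in UV libraries 1 to 4 and 60.85 and 56.8 in the untreated libraries, and 46.7 to 47.9 on the arms. The difference was 12.3 points over 6 libraries, positive in each (exact sign-flip permutation p = 0.03125, the smallest possible). It was 10.95 points without recurrent regions, positive in 6 of 6 libraries, and 11.3 points among peaks of the narrowest width. These p-values are unadjusted and belong to alternatives to the median, which follows.

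The median percentile, the main measure, differed in 3 of 6 libraries only. Medians were 74.6, 75.7, 55.7 and 63.35 inside with UV, and 48.4, 48.6, 55.7 and 47.6 on the arms. In UV replicate 3 and both untreated libraries the medians inside and outside were the same tied value, so the mean difference of 11.5 points had an exact permutation p of 0.25 (adjusted 0.333). Among wide peaks the median difference was 0.749 points. The most frequent score of each list was held by 8.57% to 48.7% of pericentromeric and 18.3% to 68.6% of arm peaks. Between groups the median was 67.3 ± 9.58 in UV libraries (n = 4) and 54.5 ± 2.84 in untreated ones (n = 2, exact permutation p = 0.2, adjusted 0.56). With mean percentiles, 60.2 against 58.8, the difference of 12.8 points fell to 1.36 (exact permutation p = 0.467). Among wide peaks it was -3.81 points.

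The tops of the lists showed the same order. At or above percentile 90 were 15 of 72, 6 of 35, 15 of 81 and 15 of 105 pericentromeric peaks with UV (replicates 1 to 4) and 17 of 78 and 16 of 106 without. As shares these were 14.3% to 20.8% with UV and 21.8% and 15.1% without, against 6.35% to 8.52% on the arms. The UV and untreated ranges overlap. In UV replicates 1, 2 and 4 each such peak was a wide one, with 0 of 51, 22 and 80 narrow peaks that high. With 3 peaks taken as the limit of a count of 0, this allows up to 5.88%, 13.6% and 3.75%. In UV replicate 3 and the untreated libraries 8, 9 and 4 narrow peaks stood at or above percentile 90.

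Few pericentromeric peaks lay close to another of the same library. A peak was counted as clustered when another midpoint of its list lay within 10 kb. With UV (replicates 1 to 4) 4, 2, 6 and 8 peaks were clustered, or 5.56%, 5.71%, 7.41% and 7.62%, and 0 of 78 and 16 of 106 peaks (15.1%) in the untreated libraries. A count of 0 of 78 allows a share of up to 3.85%. The untreated libraries thus held both extremes, and the UV libraries lay between them.

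On the arms 2.84% to 11.7% of peaks were clustered. The difference from the arms was -0.602 percentage points, lower inside in 4 of 6 libraries (exact permutation p = 0.75, adjusted 0.75). Within 50 kb it was -7.51 points (exact permutation p = 0.03125), and the lower density inside moves with it; its part was not tested. Between groups the means were 6.57% ± 1.09 (n = 4) and 7.55% ± 10.7 (n = 2, exact permutation p = 0.667), and without untreated replicate 2 the difference turned to 6.57 points.

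The 36 clustered peaks formed 17 clusters, 16 of them pairs, and 8 clusters were on chromosome 5. The largest had 4 peaks, in untreated replicate 2 at chr5:11728573-11735530, with percentiles from 0.0962 to 98.6. The next by position were a pair of untreated replicate 2 at chr1:15083628-15085974 overlapping the protein-coding gene AT1G40104, in the nearly empty middle of that window, and a pair of UV replicate 3 at chr1:17169719-17170066 overlapping the protein-coding gene AT1G45230. UV replicate 2 and untreated replicate 2 each had a pair at the AT4G06700 regions described above.

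Over all libraries together, 95 of the 325 bins of 100 kb that the pericentromeres span held no peak, rDNA peaks not counted, and the mean was 1.47. The highest counts were 8 peaks, at chr3:13500001-13600000 and chr4:3900001-4000000. In 19 bins at least 4 libraries had a peak. The bin chr3:11500001-11600000 held 7 peaks of 4 libraries with no overlap between libraries.

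A smaller share of pericentromeric than of arm peaks lay in protein-coding genes, which also cover less of the windows than of the arms. Midpoints in protein-coding genes were 26.4%, 25.7%, 38.3% and 32.4% of the pericentromeric peaks in UV libraries 1 to 4 and 28.2% and 24.5% in the untreated libraries, and 63.1% to 72.7% on the arms. Group means inside were 30.7% ± 5.88 (n = 4) and 26.4% ± 2.60 (n = 2, exact permutation p = 0.467, adjusted 0.56). The difference of 4.32 points was 1.44 in windows narrowed by 1 Mb, -2.02 in windows widened by 1 Mb, 1.795 without UV replicate 3 and 2.48 without untreated replicate 2. All 6 shares inside lay above the 22.9% of window length in protein-coding gene bodies. By Clopper-Pearson 95% intervals (counting error alone), only UV replicates 3 and 4 lay wholly above it, from 27.7% and 23.6%. The intervals of the other libraries began at 12.5% to 18.6% and included 22.9%. Whether reads could be placed over all of the window length was not tested. The arm shares of 63.1% to 72.7% lay on both sides of the 65.5% of arm length in such bodies.

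Midpoints in pseudogenes were 15 of 72, 7 of 35, 11 of 81 and 19 of 105 with UV and 10 of 78 and 13 of 106 without. These shares were 13.6% to 20.8% with UV and 12.8% and 12.3% without, below the 27.0% of window length in such genes in every library. Each UV library lay above both untreated ones, with means of 18.1% ± 3.24 (n = 4) and 12.5% ± 0.393 (n = 2, exact permutation p = 0.133). The difference of 5.585 points was 1.03 among wide peaks and 2.83 among peaks above the median score. Genes of any class, whose cover of the windows was not measured, held 48.6%, 45.7%, 53.1% and 50.5% with UV and 42.3% and 36.8% without. An exact permutation p of 0.0667, the smallest possible, went with means of 49.5% ± 3.11 (n = 4) and 39.55% ± 3.90 (n = 2). The pseudogene and any-gene tests were chosen after the shares were seen and are not adjusted. For genes of any class, Clopper-Pearson 95% intervals overlap between UV replicate 2 (28.8 to 63.35%) and untreated replicate 1 (31.2 to 54.0%), counting error alone. With windows widened by 1 Mb the any-gene difference was 3.68 percentage points (exact permutation p = 0.467), and among wide peaks it was 6.54, beside 9.92 in the main setting.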

How the data were processed

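The authors deposited 1 GFF list of MACS2 peaks per immunoprecipitated library, called against pooled input per the names of the lists and converted from BED per the file headers. The submitters' processing notes name CASAVA 1.8.2, Bowtie, MACS2 and TAIR10, with no settings. The deposited score per peak is of unknown MACS2 quantity and was used only as a rank within its list. Peak starts and ends are the authors' positions in bp, counted from 1.

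Counting used pandas 2.3.3 and numpy 2.4.6 under Python 3.11.15, tests scipy 1.17.1 and figures matplotlib 3.10.9. Arms ran from position 1 to the last peak of any library, outside the windows, 87.0 Mb beside 31.9 Mb of pericentromere. Pericentromeres and arms were compared by an exact two-sided sign-flip permutation test over 6 libraries, groups by an exact two-sided permutation test over libraries, with Benjamini-Hochberg adjustment over families of 4, 6 and 5 tests. Merging, clustering and tests were checked on simulated data.

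Genes came from a RefSeq table of TAIR10.1, whose nuclear coordinates were taken as those of TAIR10, which was not tested. Its own coordinates are not printed. The planned dipyrimidine content and all peak sequences needed a genome not used here. Named were regions of at least 3 libraries, the highest-scoring and widest peak of each library, 3 clusters, 5 high peaks outside shared regions and protein-coding genes with midpoints of at least 2 libraries. Regions of 2 libraries and pseudogenes were added after their values were seen. Members, windows, lists and tests were chosen with earlier results of these data known.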

Additional observations from a re-analysis of the deposited data

How the results depend on the processing

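Read depth is unknown and limits every count. The lower density inside ranged from -1.21 to -1.02 per Mb when each library was left out, and the wide share from 6.64 to 11.1 percentage points above the arms. With 5 libraries p cannot go below 0.0625, so these lose the unadjusted threshold by construction. The density difference turned to 0.0542 with only wide peaks and 0.360 with only peaks above the median score. The wide-share difference was -11.3 points above the median score and 5.30 without recurrent regions. The percentile difference, 11.5 points by medians (exact permutation p = 0.25), was 12.3 by means, 10.95 by means without recurrent regions and 11.3 by means of the narrowest peaks (unadjusted exact permutation p = 0.03125 each).

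The clustered difference from the arms was 2.16 points in windows narrowed by 1 Mb, 0.127 with peaks within 1 kb joined, 3.19 with rDNA kept, -7.51 within 50 kb, and -2.09 to 0.547 leaving out a library. Between groups, the density difference turned to 0.110 with wide peaks and 0.000932 per 100 nuclear peaks, the percentile difference to -3.81 with wide peaks, the clustered difference to 1.34 in widened windows and from -8.52 to 6.57 leaving out a library. The protein-coding difference was -2.02 in widened windows. Chromosome shares turned with wide peaks to 7.29 (chromosome 1), 2.20 (2), -9.93 (3) and -8.77 (4), above the median score to -1.21 (3) and -2.21 (5), in narrowed windows to 1.66 (2) and -3.60 (5), in widened windows to -0.948 (4), and ranged from -1.81 to 2.95 (4) leaving out a library. The cause was not tested. The count of 13 recurrent regions stayed between 10 and 18 under its 13 alternatives, the 18 with rDNA kept.

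Replicates 1 and 2 share a number across groups, which the labels do not call a pairing. Deviations of same-numbered libraries over 70 bins of 500 kb correlated at 0.106 and -0.124. Those with the other untreated library had the same size and the opposite sign, -0.106 and 0.124, by construction with 2 untreated libraries. This check therefore cannot tell whether the libraries were paired. With the replicate block the density difference was -1.21 per Mb, the wide share 18.1 points, the protein-coding share -0.315 and the chromosome 5 share -0.625, and the other signs held. With 2 pairs p cannot go below 0.5. The alternatives on dipyrimidine content were not run, since no genome sequence was used. Leaving out recurrent regions, ranking the narrowest peaks alone and the pseudogene and any-gene shares were chosen after seeing the data.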
